A study of Mus musculus with 6 samples.

Results

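The mouse mitochondrial genome carries 37 genes, and all 37 were present among the 54532 genes of the deposited expression table, where the rule that chose them was the chromosome entry, MT, which uses no measured value. They comprise 13 protein-coding genes, 2 ribosomal RNA genes and 22 transfer RNA genes. RNA was sequenced from primary macrophages of wild-type (WT) mice in 6 libraries. In 3 of them the cells had been given rmMETRNL for 6 h and then met the yeast Candida albicans for 6 h, and in the other 3 they had been given vehicle in place of rmMETRNL before the same 6 h challenge. METRNL is meteorin-like, a secreted protein. Every library comes from challenged cells, which leaves the response to Candida itself unmeasured. The labels give neither the mice's strain, age or sex nor the tissue the macrophages came from, and they do not say whether replicates are separate mice or cultures, so a p-value here reflects only replicate spread, possibly technical. The table's short column names were read as rmMETRNL where they hold the letter r, and the direction of every difference rests on that reading.

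Mitochondrial DNA is a small circle that is transcribed from both strands into long precursors. The tRNA genes lie between the other genes, and cutting the precursors at the tRNAs releases the mRNAs and rRNAs. The 13 proteins are core subunits of the respiratory chain and of ATP synthase, 7 in complex I (NADH dehydrogenase), 1 in complex III, 3 in complex IV (cytochrome c oxidase) and 2 in complex V (ATP synthase), while every protein that copies, transcribes or translates this genome is made from nuclear genes. Macrophages that meet microbial products are known for shifting between respiration and glycolysis. The nuclear genome also holds old insertions of mitochondrial DNA, which are annotated as pseudogenes and can take reads from the genes they copy.

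The libraries held 13235001 to 18145733 reads each, recovered from the deposited FPKM (fragments per kilobase of gene, scaled to library size). All 8 macrophage markers averaged at least 1 FPKM, with summed levels of 9381 to 9667 FPKM in rmMETRNL libraries and 9613 to 10159 FPKM in vehicle libraries. The labels' protocol describes retinas, but 0 of 6 retina markers reached a mean of 1 FPKM. Of the neutrophil markers 2 of 5 (S100a8 and S100a9) reached 1 FPKM, and their list summed to 117 to 125 FPKM in rmMETRNL libraries and 105 to 114 FPKM in vehicle libraries, ranges that did not overlap; none of its 5 genes was at 0 in all libraries, and its part in the results was not tested. T cell (1 of 5 markers), B cell (1 of 4) and fibroblast (3 of 5) lists summed to 1.35 to 3.60, 3.79 to 4.08 and 7.69 to 8.54 FPKM in rmMETRNL libraries and to 1.41 to 2.26, 3.13 to 4.29 and 7.83 to 8.23 FPKM in vehicle libraries, with overlapping ranges. In the 9867 genes that averaged 1 FPKM or more, limma on log2(FPKM + 1) called 0 (0%) at a Benjamini-Hochberg adjusted p of 0.05, with 744 genes higher with rmMETRNL (7.54%) and 704 lower (7.13%) at an unadjusted p under 0.05.

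The part of a library taken by mitochondrially encoded RNA differed between groups by less than the spread within them. These genes took 1.37%, 1.44% and 1.49% of the reads in rmMETRNL libraries 1, 2 and 3, and 1.40%, 1.33% and 1.58% in vehicle libraries 1, 2 and 3. The means were 1.43% ± 0.0648 with rmMETRNL and 1.44% ± 0.129 with vehicle (SD, n = 3 each), and the highest and the lowest library were both vehicle libraries. The protein-coding genes held nearly all of it, with 1.29% to 1.41% of reads in rmMETRNL libraries and 1.254% to 1.496% in vehicle libraries. The rRNAs took 0.0685% to 0.0811% with rmMETRNL and 0.0633% to 0.0786% with vehicle. The tRNA genes took 0.00530%, 0.00591% and 0.00595% in rmMETRNL libraries, against 0.00476%, 0.00289% and 0.00598% in vehicle libraries. In such bulk samples, fewer mitochondrial genomes in a cell and less RNA from each of them cannot be told apart.

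**Figure D1:**
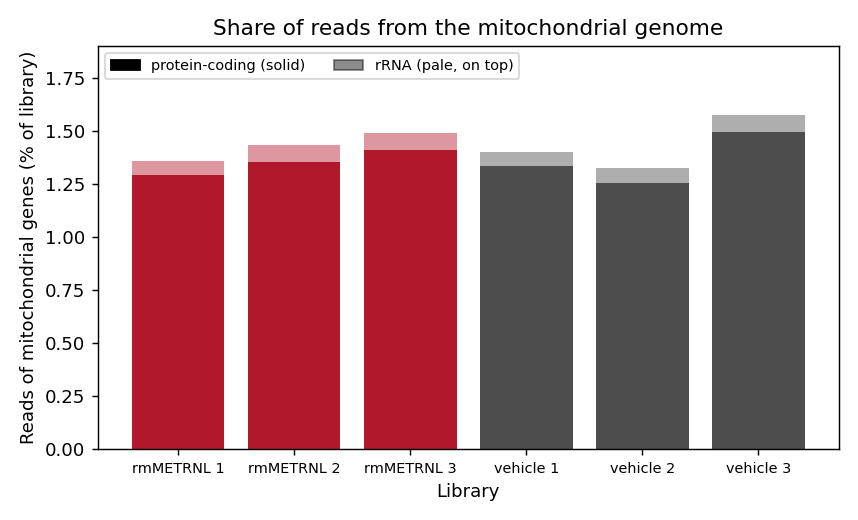
Percent of each library's recovered reads on the mitochondrial protein-coding genes (solid) and rRNA genes (pale, on top), 1 bar per library, with the rmMETRNL libraries on the left. The totals lie between 1.33% and 1.58%, and both extremes are vehicle libraries.

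Among the mitochondrial mRNAs and rRNAs the mean level per kilobase ran between 0.936 and 5163 FPKM. Of the 6 lowest genes 5 have near-identical annotated copies in the nuclear genome, and mt-Atp8 had none among the transcripts searched. mt-Co1, the catalytic subunit of complex IV, led with a mean of 5163 FPKM over the 6 libraries (4839 to 5709). mt-Nd1 (1488 FPKM) and mt-Cytb (1345 FPKM) followed with overlapping ranges, and mt-Nd1 was the higher in 6 of 6 libraries. mt-Nd6 (634 FPKM), mt-Nd5 (533 FPKM), mt-Nd2 (502 FPKM) and mt-Nd4 (477 FPKM) formed a chain in which each overlapped its neighbour. mt-Nd4 in turn overlapped the rRNA mt-Rnr2 (293 FPKM), which overlapped mt-Rnr1 (285 FPKM). mt-Nd6 was above mt-Nd5, and mt-Nd4 above mt-Rnr2, in 6 of 6 libraries. mt-Nd5 was above mt-Nd2, and mt-Nd2 above mt-Nd4, in 4 of 6, and mt-Rnr2 above mt-Rnr1 in 5 of 6. How the library preparation weighted rRNA against mRNA was not tested, so their order in the cells may differ. The next levels were those of mt-Co2 (68.6 FPKM), mt-Atp6 (34.4 FPKM) and mt-Co3 (26.2 FPKM), of which the last pair overlapped. mt-Nd3 (12.2 FPKM) and mt-Nd4l (6.34 FPKM) overlapped as well, and mt-Atp8 came last with 0.936 FPKM, which is 1 to 5 reads in a library. mt-Co1, mt-Co2 and mt-Co3 encode subunits of the same enzyme, and their means here lay between 26.2 and 5163 FPKM.

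**Figure D2:**
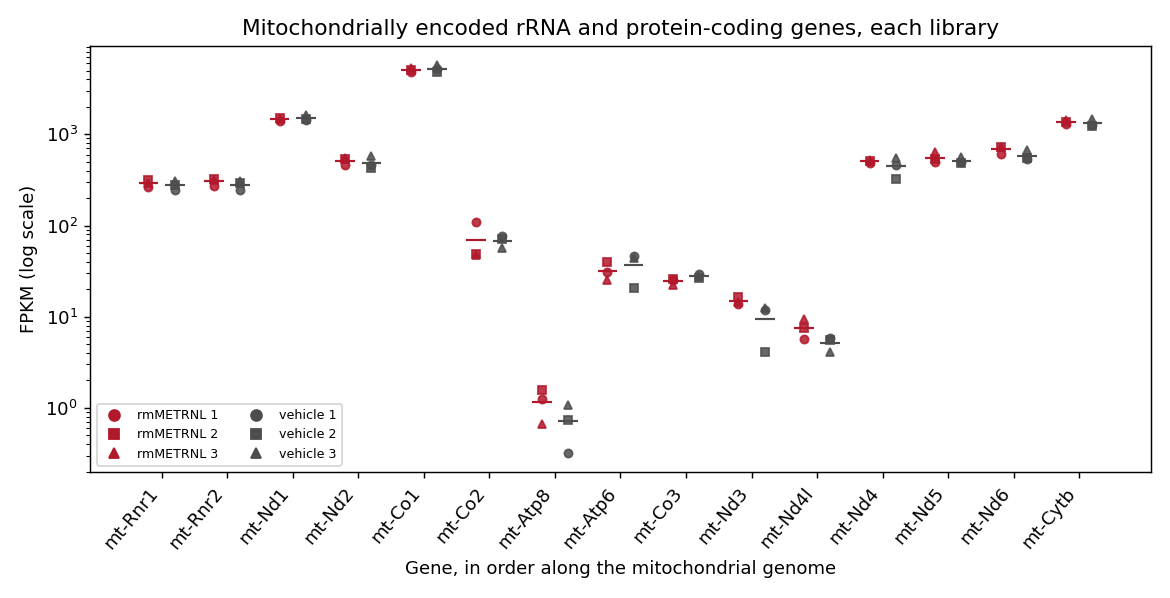
FPKM (log axis) of the 2 rRNA and 13 protein-coding mitochondrial genes in order along the genome, 1 point per library, rmMETRNL left of vehicle for each gene. The groups lie on top of each other for most genes, while genes differ from mt-Atp8 at a mean of 0.936 FPKM to mt-Co1 at 5163 FPKM.

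The copies lie side by side on chromosome 1, where 7 unprocessed pseudogenes on the minus strand cover chr1:24611535-24616197 (GRCm38). In the GENCODE M21 transcripts of that build, windows of 100 bases were looked up in the transcripts of every other gene. For mt-Co2, mt-Atp6, mt-Co3, mt-Nd3 and mt-Nd4l, 99.5%, 99.5%, 99.9%, 97.6% and 98.5% of windows also occurred in another gene, and these 5 genes averaged 6.34 to 68.6 FPKM. For mt-Nd4 the share was 60.8%, since its copy Gm28439 holds only its first 876 bases, for mt-Co1 it was 30.8% and for mt-Nd2 3.19%. mt-Nd1, mt-Nd5, mt-Nd6, mt-Cytb, mt-Atp8 and both rRNAs had no shared window of 100 bases in these transcripts. Sequence outside transcripts was not searched. The gene mt-Atp8 starts between mt-Co2 and mt-Atp6. A copy of it between Gm10925 (ends at chr1:24614651) and Gm28661 (starts at chr1:24614885) would thus have been missed. The share depends on the window: with 31 bases it was 63.9% for mt-Co1, 16.8% for mt-Nd5, 13.5% for mt-Nd2, 7.47% for mt-Atp8, 7.36% for mt-Nd6, 6.55% for mt-Cytb and 2.71% for mt-Rnr2. How the authors' counting treated reads with more than 1 possible origin is not given in the sources used here. The values of the 5 shared genes, and their order below the others, are therefore uncertain. The values of mt-Nd4 and mt-Co1 are uncertain over their shared parts too, as is the place of mt-Nd4 beside mt-Nd2 and mt-Rnr2.

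The first 60 bases of mt-Co2 and of its copy Gm28661, shown to make clear why a read cannot be placed, have no difference. The stretch of mt-Co1 that starts at base 1054 of the gene is shown with its counterparts in Gm29216 (chromosome 1) and Gm13340 (chromosome 2), because there the copies can be told from the gene; capitals mark bases of a copy that differ from mt-Co1. All are from GENCODE M21 transcripts, GRCm38, 5′ to 3′ along the gene.
mt-Co2, chrMT:7013-7072, plus strand: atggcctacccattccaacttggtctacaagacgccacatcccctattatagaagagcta
Gm28661, chr1:24615506-24615565, minus strand: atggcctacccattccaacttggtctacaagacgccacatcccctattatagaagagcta
mt-Co1, chrMT:6381-6440, plus strand: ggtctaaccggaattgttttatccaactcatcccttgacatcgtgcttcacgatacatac
Gm29216, chr1:24616138-24616197, minus strand: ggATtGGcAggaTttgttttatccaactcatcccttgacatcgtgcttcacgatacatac
Gm13340, chr2:22588535-22588594, minus strand: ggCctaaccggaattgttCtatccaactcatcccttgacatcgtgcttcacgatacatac
Over its whole aligned stretch Gm28661 matched mt-Co2 at 681 of 681 bases, Gm10925 matched mt-Atp6 at 678 of 678, Gm28437 matched mt-Co3 at 783 of 783 and Gm10222 matched mt-Nd4l at 294 of 294. Gm28438 matched mt-Nd3 at 344 of 345 bases and differed by T3C, counted from the first base of mt-Nd3, with the mitochondrial base first. Gm29216 matched mt-Co1 at 486 of 492 bases.

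**Figure D3:**
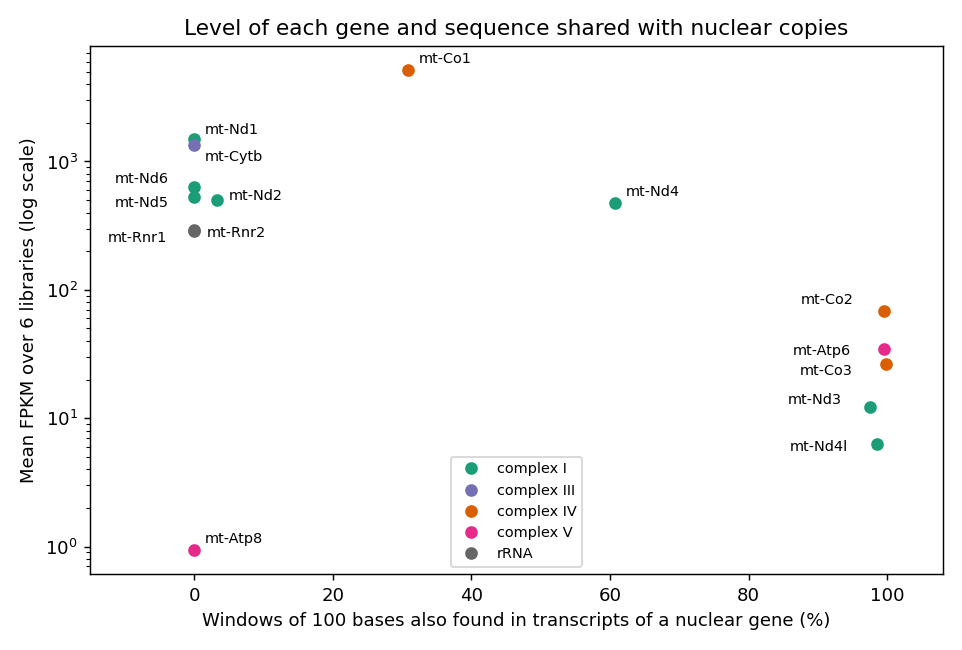
Mean FPKM over 6 libraries (log axis) of each mitochondrial rRNA and protein-coding gene against the percent of its 100-base windows found in transcripts of a nuclear gene. The 5 genes with over 90% of windows shared lie between 6.34 and 68.6 FPKM. mt-Atp8, at 0.936 FPKM, has no shared window of this length in the transcripts searched, and sequence outside transcripts was not searched.

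Reads were also assigned to the copies, 1097 to 1466 in a library over the 7 on chromosome 1. Gm28661 had 43.6, 36.8 and 40.0 FPKM in rmMETRNL libraries 1, 2 and 3, against 59.5, 87.1 and 44.1 FPKM in vehicle libraries 1, 2 and 3, so every rmMETRNL library lay below every vehicle library; by limma the log2 fold change was -0.60 with an SE of 0.23 (adjusted p = 0.315). Gm29216 had 22.5, 18.4 and 18.4 FPKM with rmMETRNL and 24.1, 29.3 and 25.0 FPKM with vehicle, again without overlap (log2 fold change -0.39, SE 0.10, limma adjusted p = 0.238). Neither difference passed the threshold, and vehicle library 2 was the highest for both. Of all tested genes 10.6% lay below without overlap. Reads from stretches identical to mt-Co2 or mt-Co1 cannot be placed, so neither difference can be assigned to the copy. Gm10925 averaged 26.0 FPKM, Gm28437 16.9, Gm28439 4.33, Gm10222 3.80, Gm13340 2.35, Gm28438 1.65 and Gm13341 1.18 FPKM, all with overlapping groups. The copy held 28.4% to 55.1% of the summed reads of mt-Co2 and Gm28661 in a library, 37.2% to 54.6% for mt-Atp6 and Gm10925, 35.6% to 45.5% for mt-Co3 and Gm28437, and 0.111% to 0.193% for mt-Co1 and Gm29216.

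Between pretreatments, none of the tested mitochondrial genes was called. Of the 37 genes 26 passed the filter of a mean of 1 FPKM, namely 12 of 13 protein-coding genes, 2 of 2 rRNAs and 12 of 22 tRNAs. The other 11 were not tested. Limma called 0 of the 26, as of all genes, and limma with voom weights on the recovered reads, which called 40 genes higher (0.405%) and 21 lower (0.213%) among the 9867, also called 0 of them. At an unadjusted p under 0.05 limma had 4 of the 26 higher with rmMETRNL (mt-Tl1, mt-Tn, mt-Nd4l and mt-Tl2) and 1 lower (mt-Co3). Among all tested genes 7.54% were higher and 7.13% lower at that level. With each library left out in turn, 1 to 8 mitochondrial genes were higher and 0 to 2 lower. The 3 rmMETRNL libraries lay above all 3 vehicle libraries for 3 of the 26 (mt-Tl1, mt-Tc and mt-Nd3), where 10.9% of all tested genes did so, and below them for 1 (mt-Co3), where 10.6% did. The median log2 fold change was 0.35 over the 26, against -0.01 over all tested genes, and 21 of 26 were positive, against 48.4% of all genes (51.6% were negative). The median was 0.07 over the 14 mRNAs and rRNAs and 0.91 over the 12 tRNAs.

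**Figure D4:**
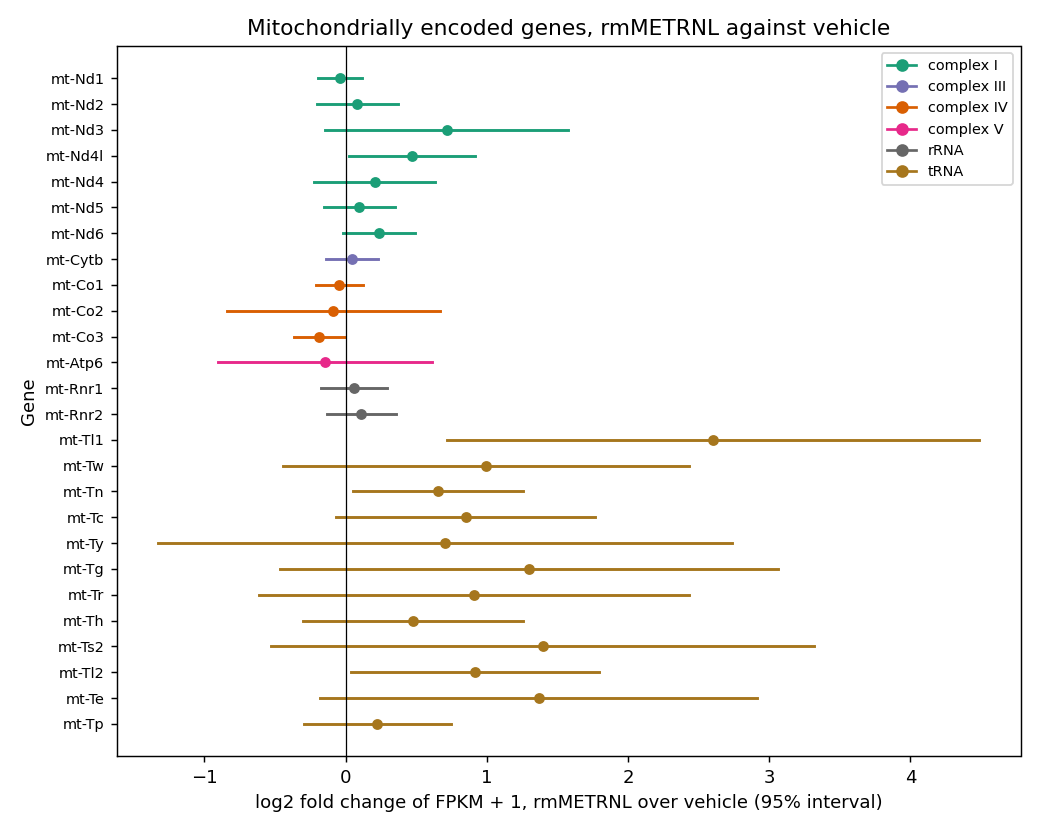
Log2 fold change of FPKM + 1 for the 26 tested mitochondrial genes, rmMETRNL over vehicle, with 95% intervals from limma, coloured by role. The intervals of abundant mRNAs are narrow and span 0, and those of the tRNAs are wide, with mt-Tl1 the farthest right at 2.60.

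The 2 groups overlapped for each complex I gene whose level was high. mt-Nd1 had 1402, 1513 and 1490 FPKM in rmMETRNL libraries and 1427, 1456 and 1642 FPKM in vehicle libraries, which overlap, and its log2 fold change was -0.04 (95% interval -0.19 to 0.12, limma adjusted p = 0.835). mt-Nd2 had 462, 532 and 551 FPKM with rmMETRNL and 464, 426 and 575 FPKM with vehicle (log2 fold change 0.08, limma adjusted p = 0.792). mt-Nd4 had 479, 516 and 524 FPKM with rmMETRNL and 466, 325 and 553 FPKM with vehicle (0.21, SE 0.18). In mt-Nd4 the low value was that of vehicle library 2, and the other vehicle libraries enclosed the rmMETRNL range. mt-Nd5 had 492, 531 and 633 FPKM with rmMETRNL and 495, 482 and 566 FPKM with vehicle (0.10, SE 0.11). mt-Nd6 had 607, 728 and 725 FPKM with rmMETRNL and 537, 544 and 664 FPKM with vehicle (0.24, 95% interval -0.01 to 0.49, limma adjusted p = 0.362). With voom the log2 fold change of mt-Nd6 was 0.23 (95% interval 0.05 to 0.40, voom adjusted p = 0.193). Encoded on the minus strand, mt-Nd6 is the 1 protein-coding gene that is not read from the strand of the others, and 14 of its bases also belong to mt-Nd5; whether counting used the strand is not given in the sources used here, so RNA from the opposite strand cannot be told apart from its own.

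The shortest complex I genes were sparse and shared their sequence with chromosome 1. mt-Nd3 had 13.7, 16.3 and 14.5 FPKM in rmMETRNL libraries, against 11.9, 4.08 and 12.5 FPKM in vehicle libraries. All rmMETRNL libraries lay above all vehicle libraries, with vehicle library 2 far below the rest (log2 fold change 0.72, SE 0.36, limma adjusted p = 0.413). Without that library the log2 fold change was 0.26 (limma adjusted p = 0.419). mt-Nd4l had 26, 35 and 42 reads with rmMETRNL and 26, 22 and 22 reads with vehicle, or 5.63, 7.51 and 9.54 FPKM against 5.78, 5.54 and 4.07 FPKM (log2 fold change 0.47, SE 0.19, limma adjusted p = 0.326). With the reads of Gm28438 and Gm10222 added to those of mt-Nd3 and mt-Nd4l, the log2 fold changes were 0.71 and 0.40.

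mt-Cytb, the mitochondrially encoded subunit of complex III, had 1294, 1361 and 1440 FPKM with rmMETRNL and 1273, 1228 and 1472 FPKM with vehicle. The groups overlapped, and the log2 fold change was 0.05 (SE 0.08, limma adjusted p = 0.826).

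In complex IV, mt-Co1 had 4869, 5091 and 5284 FPKM with rmMETRNL and 5188, 4839 and 5709 FPKM with vehicle, which overlap (log2 fold change -0.04, 95% interval -0.21 to 0.12, limma adjusted p = 0.816). mt-Co2, which carries the copper site that takes electrons from cytochrome c, had 109, 49.3 and 47.9 FPKM with rmMETRNL and 77.4, 70.5 and 56.9 FPKM with vehicle. Its highest and its lowest library were both rmMETRNL libraries (log2 fold change -0.09, SE 0.32, limma adjusted p = 0.928), and with Gm28661 added the log2 fold change was -0.30 (limma adjusted p = 0.625). mt-Co3 had 25.3, 26.0 and 22.2 FPKM with rmMETRNL, against 29.7, 26.2 and 27.9 FPKM with vehicle. All rmMETRNL libraries lay below all vehicle libraries, and the log2 fold change was -0.18 (95% interval -0.37 to -0.00369, limma adjusted p = 0.333), or -0.12 (limma adjusted p = 0.335) with Gm28437 added.

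In complex V, mt-Atp6, the proton channel subunit of ATP synthase, had 30.6, 39.4 and 25.4 FPKM with rmMETRNL and 45.8, 20.4 and 44.5 FPKM with vehicle. The rmMETRNL libraries lay between vehicle library 2 and the other vehicle libraries (log2 fold change -0.15, SE 0.32, limma adjusted p = 0.873). mt-Atp8, whose reading frame shares 43 bases with that of mt-Atp6, had 1.26, 1.56 and 0.661 FPKM with rmMETRNL and 0.324, 0.733 and 1.08 FPKM with vehicle and was not tested.

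The rRNAs, which form the cores of the small (mt-Rnr1) and large (mt-Rnr2) mitochondrial ribosome subunits, were level between groups within their spread. mt-Rnr1 had 265, 312 and 295 FPKM with rmMETRNL and 247, 279 and 311 FPKM with vehicle (log2 fold change 0.06, limma adjusted p = 0.817). mt-Rnr2 had 270, 326 and 315 FPKM with rmMETRNL and 247, 290 and 307 FPKM with vehicle (log2 fold change 0.11, limma adjusted p = 0.655).

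Set against the summed FPKM of the 13 protein-coding genes in the same library, 4 of the 13 held shares that did not overlap between groups. By FPKM, 10.9% of all tested genes lay above and 10.6% below without overlap, and no such background was computed for shares. The shares add up to a fixed whole, so they are not independent of each other, and no test was made. mt-Co1 held 49.7%, 48.9% and 49.1% with rmMETRNL and 51.8%, 51.3% and 50.4% with vehicle, a mean of 49.2% ± 0.438 against 51.2% ± 0.701 (SD, n = 3 each). mt-Nd6 held 6.20%, 6.99% and 6.73% with rmMETRNL and 5.36%, 5.77% and 5.86% with vehicle. mt-Cytb held 13.21%, 13.07% and 13.38% with rmMETRNL and 12.71%, 13.02% and 12.99% with vehicle. The share of mt-Co1 was thus lower, and those of mt-Nd6 and mt-Cytb higher, in each rmMETRNL library than in each vehicle library, for mt-Cytb by a narrow gap. mt-Nd3 held 0.140%, 0.157% and 0.135% with rmMETRNL and 0.119%, 0.0433% and 0.110% with vehicle. By complex, complex I genes together held 35.4%, 36.9% and 36.7% with rmMETRNL and 34.0%, 34.4% and 35.5% with vehicle, and complex IV genes 51.11%, 49.62% and 49.73% with rmMETRNL and 52.84%, 52.35% and 51.15% with vehicle. The complex I ranges overlapped only through rmMETRNL library 1 and vehicle library 3, and the complex IV ranges lay next to each other without overlap. Complex V genes held 0.243% to 0.393% with rmMETRNL and 0.224% to 0.461% with vehicle.

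The tRNA genes had few reads, and it is there that the positive fold changes gathered. Mature tRNAs are short and heavily modified, and from the table it cannot be told whether a read came from a mature tRNA or from a longer precursor. In all libraries 6 of the 22 were at 0 (mt-Tf, mt-Tv, mt-Tq, mt-Tm, mt-Td and mt-Tk). By counting error alone, a 0 in a single library allows a level of up to 3 reads there. The same 0 in all 6 libraries allows less on average. Another 10 had 0 to 11 reads in any library and summed to 36, 42 and 34 reads with rmMETRNL and 35, 3 and 22 reads with vehicle. The remaining 6 averaged at least 10 reads. Genes annotated on the minus strand, 8 of the 22, held 93.3% of all tRNA reads, or 75.3% when mt-Tp is left out. Whether counting used the strand is not given in the sources used here, so RNA of the opposite strand cannot be told apart. The tRNA genes are shorter than 100 bases, so 100-base windows could not test them for nuclear copies. With 31-base windows mt-Ty shared 10.8% with transcripts of other genes, and the 6 genes at 0 reads shared 0%. Sequence outside transcripts was not searched.

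The genes for the tRNA that reads the UUA and UUG leucine codons, mt-Tl1, and for the proline tRNA, mt-Tp, are shown because they had the largest fold change and the most reads; capitals mark the anticodon, in DNA letters, 5′ to 3′ along the gene (GENCODE M21, GRCm38).
mt-Tl1, chrMT:2676-2750, plus strand: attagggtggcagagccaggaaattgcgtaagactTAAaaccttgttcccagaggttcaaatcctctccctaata
mt-Tp, chrMT:15356-15422, minus strand: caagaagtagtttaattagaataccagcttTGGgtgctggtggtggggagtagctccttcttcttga
mt-Tl1 lies directly between mt-Rnr2 and mt-Nd1, and mt-Tp is the last gene before the non-coding control region.

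mt-Tl1 had 21, 27 and 30 reads in rmMETRNL libraries 1, 2 and 3, against 5, 0 and 13 reads in vehicle libraries 1, 2 and 3, or 78 against 18 reads in sum. Every rmMETRNL library was above every vehicle library, and per length the levels were 18.01, 22.94 and 26.97 FPKM against 4.3998, 0 and 9.52 FPKM. Its log2 fold change of 2.60 (SE 0.79) was the highest of the 9867 genes tested at a pseudocount of 1, but its limma adjusted p was 0.259, and with voom 0.103. The size rests on the pseudocount, since vehicle library 2 had 0 reads: it was 3.78 with 0.1 and 4.90 with 0.01 in place of 1 (limma adjusted p = 0.339 and 0.404). Without vehicle library 2 the log2 fold change was 1.63 (limma adjusted p = 0.361). Its neighbours on the genome, mt-Rnr2 and mt-Nd1, gave 0.11 and -0.04. The other leucine tRNA, mt-Tl2, had 14, 18 and 21 reads with rmMETRNL and 9, 4 and 18 reads with vehicle, which overlap (0.92, limma adjusted p = 0.327; without vehicle library 2, 0.52).

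mt-Tp had 555, 643 and 628 reads with rmMETRNL and 536, 321 and 832 reads with vehicle, so that the lowest and the highest library were both vehicle libraries (log2 fold change 0.22, limma adjusted p = 0.677). The cysteine tRNA mt-Tc had 97, 93 and 74 reads with rmMETRNL and 62, 21 and 86 reads with vehicle, and per length 94.5, 89.8 and 75.6 FPKM against 62.0, 23.8 and 71.6 FPKM. In reads the groups overlapped, and in FPKM, which takes the libraries' depth into account, they did not (log2 fold change 0.85, SE 0.38, limma adjusted p = 0.368; without vehicle library 2, 0.37). The asparagine tRNA mt-Tn had 72, 93 and 89 reads with rmMETRNL and 52, 32 and 91 reads with vehicle (0.66, SE 0.25, limma adjusted p = 0.319; without vehicle library 2, 0.40). The tyrosine tRNA mt-Ty had 22, 15 and 8 reads with rmMETRNL and 16, 1 and 23 reads with vehicle, with both extremes again in vehicle libraries.

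**Figure D5:**
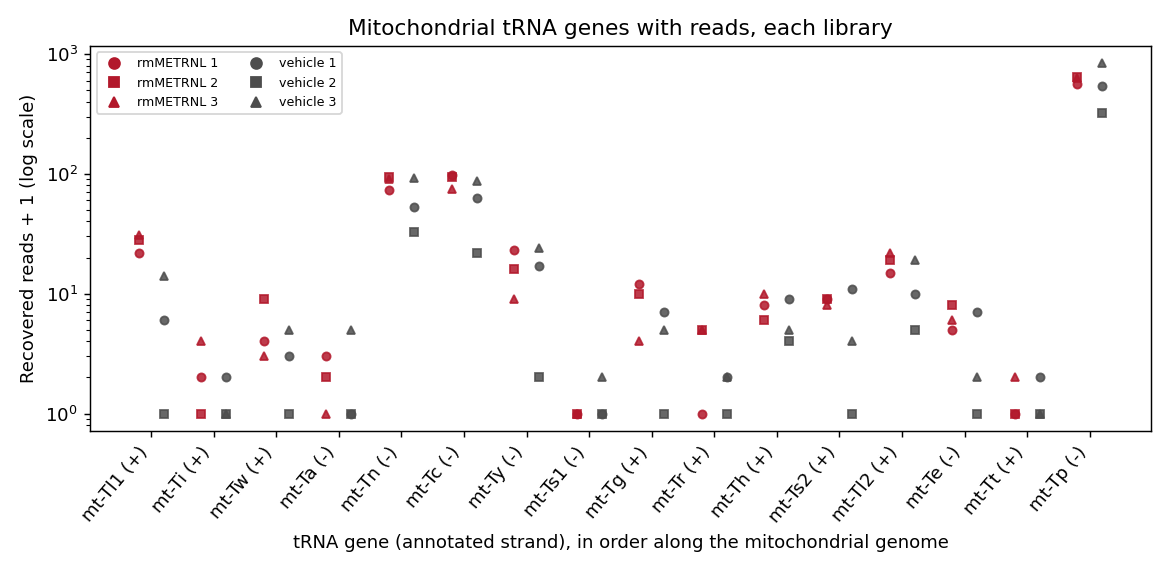
Recovered reads + 1 (log axis) of the mitochondrial tRNA genes that had reads, in order along the genome with the annotated strand, 1 point per library, rmMETRNL left of vehicle for each gene. mt-Tp leads with 321 to 832 reads, and vehicle library 2 has 0 reads for 6 of the 12 tested tRNA genes.

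Vehicle library 2 stood apart for these genes, so the values are given here without it too. In FPKM it was the lowest of the 6 libraries for 10 of the 12 tested tRNAs and for 7 of the 12 tested mRNAs, and it had 0 reads for 6 of the 12 tRNAs, where 1 of the 12 was at 0 in any other library. Over the 26 tested genes its median deviation from the mean of the 6 libraries was -0.59 on the log2 scale, while the other libraries lay between -0.05 and 0.23. It was also the library with the fewest reads. Without it the median log2 fold change was 0.16 over the 26 genes, 0.44 over the 12 tRNAs, of which 10 were positive, and -0.01 over the 14 mRNAs and rRNAs. mt-Tl1, mt-Tc and mt-Nd3 then lay above all vehicle libraries, and mt-Co3 and mt-Atp6 below them, where 15% of all tested genes lay above and 16% below the remaining vehicle libraries.

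Nuclear genes that transcribe, process and translate this genome showed no called change either. Of 62 such genes 49 were tested, 0 were called by limma (at an unadjusted p under 0.05 limma had 1 higher and 1 lower, and voom called 0), and 34 had a negative log2 fold change, against 51.6% of all genes, with a median of -0.08. In 1 of the 49 the rmMETRNL libraries lay above all vehicle libraries and in 6 below them, where 10.9% and 10.6% of all tested genes did so, which puts the 6 near the background; the 6 genes with the smallest p are given next as values. Lrpprc, which stabilises mitochondrial mRNAs, had 5.50, 5.42 and 5.41 FPKM with rmMETRNL, against 4.41, 4.45 and 4.64 FPKM with vehicle. It is the gene whose rmMETRNL libraries were all higher (log2 fold change 0.23, SE 0.05, limma adjusted p = 0.216). Pnpt1, a mitochondrial RNA-degrading nuclease, had 2.09, 2.21 and 2.40 FPKM with rmMETRNL and 2.72, 2.79 and 3.30 FPKM with vehicle (-0.28, limma adjusted p = 0.259).

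Polrmt, the mitochondrial RNA polymerase, had 1.62, 1.28 and 1.35 FPKM with rmMETRNL and 2.00, 1.76 and 1.64 FPKM with vehicle, without overlap (log2 fold change -0.21, limma adjusted p = 0.377). Polg, the catalytic subunit of the mitochondrial DNA polymerase, had 4.16, 3.70 and 3.73 FPKM with rmMETRNL and 4.41, 4.23 and 4.601 FPKM with vehicle (-0.16, limma adjusted p = 0.344). Rexo2, which degrades short RNA fragments in mitochondria, had 15.01, 16.62 and 13.60 FPKM with rmMETRNL and 17.0, 16.8 and 17.2 FPKM with vehicle (-0.17, limma adjusted p = 0.357). Ptcd1, a pentatricopeptide RNA-binding protein of mitochondria, had 2.34, 2.44 and 2.51 FPKM with rmMETRNL and 3.41, 2.70 and 2.74 FPKM with vehicle (-0.20, limma adjusted p = 0.368). These 5 genes were lower in every rmMETRNL library than in any vehicle library, none past the threshold. By group, 4 of 5 tested transcription factors and polymerase genes had a positive log2 fold change (median 0.07), while 5 of 20 RNA processing and decay genes (median -0.08), 2 of 7 DNA maintenance genes (-0.15), 2 of 7 RNA modification genes (-0.09) and 2 of 10 translation factors (-0.07) did.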

How the data were processed

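The authors deposited 1 table of FPKM for 54532 genes. GRCm38 and mm10 come from the submitters' processing notes. The sources used here name no aligner, counter or strand setting. Per the labels' protocols, an Illumina TruSeq RNA kit was used. FPKM times gene length gave whole reads for 100% of values (tolerance 0.05 reads). Total reads were 13235001 to 18145733 per library. The 9867 genes averaging 1 FPKM or more went into limma 3.58.1 (R 4.3.3), with trend, on log2(FPKM + 1), two-sided, Benjamini-Hochberg threshold 0.05. This scale understates the change of low genes. Voom on recovered reads, other pseudocounts, filters and scalings, and leaving out each library were alternatives. The fit was also run on simulated data. Their replicate spread was capped, so that run says nothing about genes of larger spread, such as mt-Tl1. All mRNA and rRNA genes, tRNA genes averaging at least 10 reads, the 6 nuclear genes with the smallest p and copies averaging at least 1 FPKM are named. Coordinates of all 37 genes equal GENCODE M21. The membership rule uses no measured value, but the mitochondrial genes as a subject and the nuclear and marker lists were chosen with earlier results of these data known.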

Additional observations from a re-analysis of the deposited data

How the results depend on the processing

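In none of the settings tried, including voom, was there a call for a mitochondrial gene or a nuclear gene of mitochondrial gene expression. Among all genes 0 were called, against 5 with no filter on low values, 1 after rescaling to TPM and 61 with voom on recovered reads. Over all tested genes, same-numbered libraries of the 2 groups did not deviate together (correlations of -0.02, 0.01 and -0.05). The labels do not say whether they were paired, and these correlations cannot settle it. With the replicate number as a replicate block 0 genes were called (lowest adjusted p = 0.221, limma). The median log2 fold change of the mitochondrial genes was then 0.35. That median was 0.16 to 0.40 when each library was left out in turn, 0.07 for protein-coding and rRNA genes alone, and 0.08 for the 7 genes with at least 1000 reads and under 10% of 100-base windows shared (with 31-base windows mt-Nd2 and mt-Nd5 exceed 10%; both selections chosen after seeing the data, as was summing genes with their copies). Of 20 named mitochondrial genes 9 kept their direction in each of the 17 settings that could test them, and 11 reversed when 1 library was left out, with log2 fold changes from -0.0999 to 0.0193 for mt-Co1, -0.47 to 0.12 for mt-Co2, -0.515 to 0.0494 for mt-Atp6, -0.0757 to 0.0257 for mt-Nd1, -0.00819 to 0.207 for mt-Nd2, -0.00547 to 0.376 for mt-Nd4, -0.00469 to 0.18 for mt-Nd5, -0.00572 to 0.125 for mt-Cytb, -0.0232 to 0.142 for mt-Rnr1, -0.0230 to 0.440 for mt-Tp and -0.33 to 1.28 for mt-Ty; the cause was not tested. Few reads limit what can be said of the tRNAs, of which 10 had at most 11 reads in any library and another 6 had none. The cause of these low counts was not tested.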
